A study of Mus musculus with 6 samples.

Results

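Cytosolic ribosomal protein genes are taken here as the genes whose symbol is Rpsa, Rplp0, Rplp1 or Rplp2, or is made of Rpl or Rps, a number and at most 1 of the letters a, l and x, without the ribosomal S6 kinases and named pseudogenes. The rule used symbols and no measured value, and it found 83 genes among the 56923 of the deposited table, 51 of the large subunit and 32 of the small. They were measured by bulk poly-A RNA sequencing of the locus coeruleus, the main noradrenaline-making nucleus of the brainstem, in 3 libraries from 5xFAD mice (numbered 64, 65 and 79) and 3 from wild-type (WT) mice (62, 63 and 66). 5xFAD mice express mutant human APP of familial Alzheimer's disease under a Thy1 promoter that is active in neurons, and deposit amyloid in the brain. The nucleus was punched from brain slices, and the labels give neither age, sex nor batch, nor whether each library is a separate animal. Each library's column name ends in a tag of its own that looks like a lane number. The tags run in order, with the 3 lowest in WT and the 3 highest in 5xFAD. An effect of what the tags mark cannot be told apart from the library or, where it follows their order, from genotype. The p-values therefore measure the spread between these libraries, part of which may be technical.

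Each cytosolic ribosome is a small subunit that reads the messenger RNA joined to a large subunit that makes the peptide bonds, and nearly every ribosomal protein is present once per ribosome. The genes are active in all cell types and their transcripts are kept in proportion to one another, partly because most of them begin with a tract of pyrimidines through which mTOR and the RNA-binding protein Larp1 adjust their translation and stability. In neurons, ribosomal protein transcripts are found in dendrites and axons as well as the cell body, and impaired ribosome function has been reported in human Alzheimer's disease cortex.

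The bases around the transcription start are shown because the pyrimidine tract there is a feature through which most of the family is controlled. They are given for Rpl38 and Rps12, the gene of each subunit with the lowest fold change among those whose groups did not overlap. Rpl41 and Rps27 are also shown, as the gene of each subunit with the highest fold change. Each sequence runs 5′ to 3′ on the coding strand, from 15 bases before the start through the first 15 bases of the transcript, with CTTTCC in capitals where it occurs, and comes from RefSeq on GRCm38.p6, which is not the build of the deposited data. Rpl38 lies on the plus strand at chr11:114668565-114668594, Rps12 on the minus strand at chr10:23787195-23787224, Rpl41 on the minus strand at chr10:128549154-128549183 and Rps27 on the minus strand at chr3:90213634-90213663.
Rpl38: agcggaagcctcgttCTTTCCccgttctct
Rps12: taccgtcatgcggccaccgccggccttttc
Rpl41: cacacgggccggctcggaagtgacgacacc
Rps27: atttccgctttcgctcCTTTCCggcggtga

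The CTTTCC tract begins at the first transcribed base of Rpl38 and at the next base of Rps27. These exact letters are not in the windows of Rps12 and Rpl41, though the window of Rps12 ends in another run of pyrimidines. The genes shown were picked by their fold change, and whether the letters go with fold change over the family was not tested. Of the 78 genes tested for a difference between genotypes, 57 matched a promoter entry, with 68 start windows among them because 9 genes had more than 1 start. CTTTCC was in 9 of the 68 windows (13.2%), each time on the coding strand, against 2.68% of 32851 windows of all RefSeq promoters on either strand. A run of 5 pyrimidines from the first transcribed base was in 23.5% of the ribosomal protein windows and 4.44% of all. The run was counted from the RefSeq start as annotated, so a tract that begins some bases away was not counted. These matches describe the letters only.

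In 300-base promoters, from 250 bases before to 50 after the start, the letters CCGGAAG, the core bound by factors of the ETS family, occurred on either strand in 25 of 68 ribosomal protein windows (36.8%), against 8.86% of all. The 120 bases before the start are shown for Rpl38, the gene with the lowest fold change, at chr11:114668460-114668579 on the plus strand, and for Rpl41, that with the highest, at chr10:128549169-128549288 on the minus strand, with CCGGAAG in capitals.
Rpl38: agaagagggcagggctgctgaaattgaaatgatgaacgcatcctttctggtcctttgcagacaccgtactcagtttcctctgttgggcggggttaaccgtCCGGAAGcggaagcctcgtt
Rpl41: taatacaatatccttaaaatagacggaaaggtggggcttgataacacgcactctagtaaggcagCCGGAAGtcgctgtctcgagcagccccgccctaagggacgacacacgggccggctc

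Both of these promoters hold the letters CCGGAAG on the coding strand. The 2 genes were picked by fold change, and whether these letters go with it over the family was not tested. AAGATGGC, the core of the YY1 motif, was in 10.3% of the ribosomal protein promoters and 2.75% of all on either strand. TATAAA was in 8.82% of the ribosomal protein promoters and 13.6% of all on either strand.

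Libraries held 15158712 to 17774759 reads assigned to genes in 5xFAD and 17362733 to 20079349 in WT. The label check was Thy1, whose promoter drives the transgene. It had 21875, 16885 and 22211 normalized counts in 5xFAD and 8755, 7976 and 9090 in WT, with a log2 fold change of 1.23 ± 0.11 (SE, n = 3 each; limma adjusted p = 0.0456). Of 13 noradrenergic markers, 12 were measured above the filter and Hand1 was listed at 0. Their summed normalized count ran from 13075 to 18078 in 5xFAD and from 9531 to 16573 in WT, so the groups overlapped. Markers of cells outside the nucleus were also present, with cerebellar granule marker sums of 8633 to 17035 in 5xFAD and 5710 to 14274 in WT.

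Ribosomal protein genes took nearly the same part of the reads in both genotypes. They held 1.084%, 1.098% and 1.067% of assigned reads in 5xFAD libraries 64, 65 and 79, against 1.081%, 1.110% and 1.093% in WT libraries 62, 63 and 66. The shares averaged 1.08% ± 0.0157 in 5xFAD and 1.09% ± 0.0146 in WT (SD, n = 3 each), and the groups overlapped. After the authors' scaling by size factors, the summed normalized count of the 78 tested genes was 189918, 188287 and 189621 in 5xFAD and 194139, 191715 and 193823 in WT. On that scale the 3 5xFAD sums lay below the 3 WT sums, a separation that the share of reads did not show.

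No ribosomal protein gene passed the test across all genes (limma on log2(normalized count + 1), Benjamini-Hochberg adjusted p under 0.05 over 16411 genes). The threshold was passed by 1 gene of all, or 0.00609%, and that gene was Thy1, the label check. EdgeR and DESeq2 on the recovered reads also called 0 ribosomal protein genes. They called 1 of all genes (0.00609%) with edgeR and 3 (0.0106%) with DESeq2. Each gave 1 ribosomal protein gene an unadjusted p under 0.05. At an unadjusted limma p under 0.05 there was 1 ribosomal protein gene, Rpl38, lower in 5xFAD, which is 1.28% of the tested family and stands beside 2.32% of all genes in either direction, 1.05% in the lower and 1.27% in the higher direction. The authors' deposited table gives 81 of the 83 genes a p-value, with 0 under 0.05 after adjustment and 1 before it. Signed as 5xFAD over WT, it gives Rpl38 a log2 fold change of −0.190 and an unadjusted p of 0.0419. The DESeq2 run on the recovered reads gave the same values, so the deposited table is not a separate result.

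The fold changes were small and mostly of 1 sign. The log2 fold change, 5xFAD over WT, was below 0 for 63 of the 78 tested genes (80.8%) and above 0 for 15, whereas 49.8% of all tested genes were below and 50.2% above 0. It ran from −0.19 to 0.11, with a median of −0.026, a difference of −1.80%, beside a median of 0.00053 over all tested genes. Large-subunit genes had a median of −0.034 with 40 of 46 below 0, and small-subunit genes a median of −0.016 with 23 of 32 below 0. The family is not a sample of independent genes, so the count is a description. Scaled to total reads instead of size factors, the family's median was −0.012 with 51 of 78 below 0, while the median of all genes moved to 0.015. Such scaling shifts all genes of a library alike, so the gap between both medians, −0.027, could hardly change. With quantile normalization, which is not such a shift, the family's median was −0.027, that of all genes −0.0055 and the gap −0.022.

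**Figure D1:**
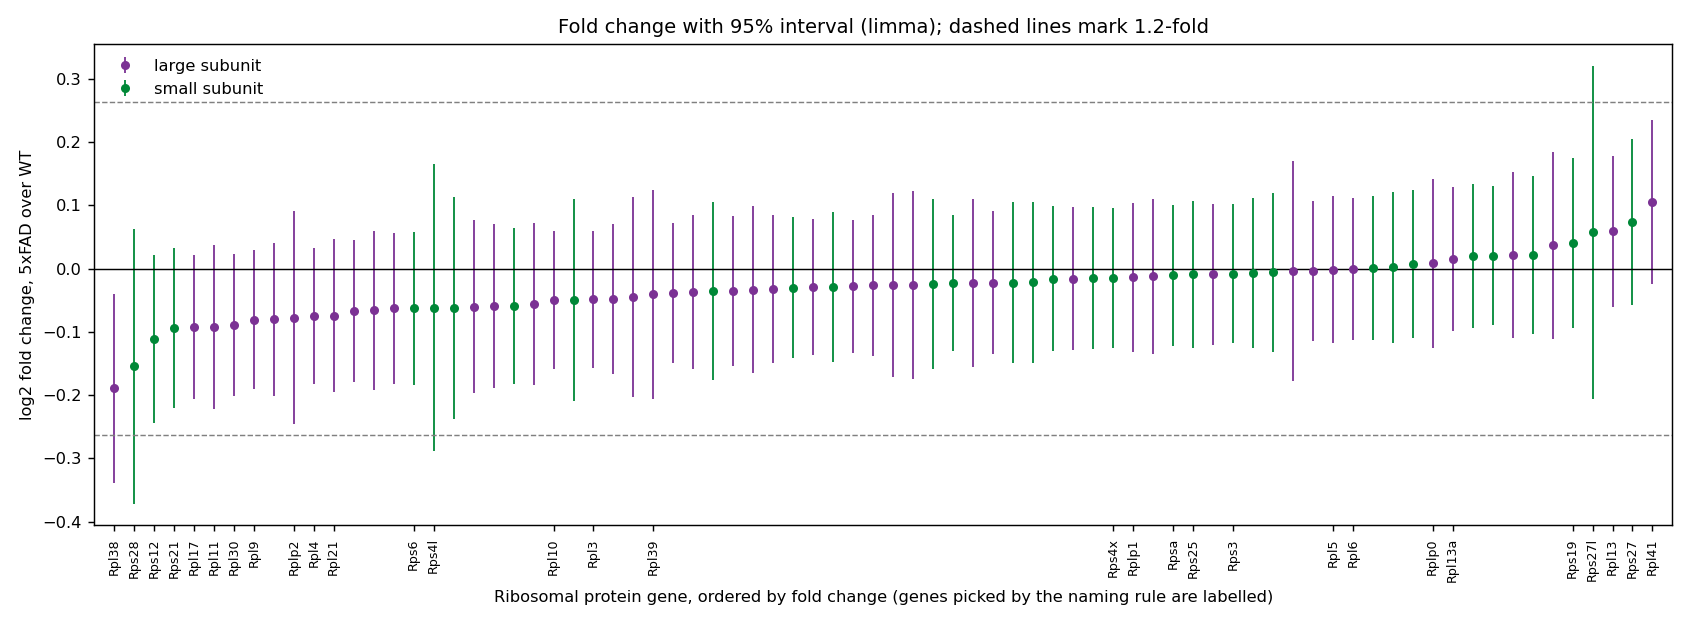
Log2 fold change (5xFAD over WT, vertical axis) of each tested ribosomal protein gene with its 95% interval from limma, ordered from lowest to highest along the horizontal axis, with colours for the large and small subunits and dashed lines at 1.2-fold in either direction. The points run from −0.19 for Rpl38 to 0.11 for Rpl41, and 63 of 78 lie below 0.

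For 14 genes (17.9%) the 3 5xFAD values all lay below the 3 WT values, and for 0 genes all above, beside 3.7% of all tested genes in the lower and 3.72% in the higher direction, 7.42% together. These 14 comprised 12 of the large subunit, including Rpl3, Rpl4, Rpl9, Rpl10, Rpl17, Rpl21, Rpl30 and Rpl38, and 2 of the small, Rps12 and Rps21. With scaling to total reads the number was 6, and with quantile normalization it was 8. The shares over all tested genes hold for the authors' scale and are not given for these scales.

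The medians of the libraries followed genotype on the authors' scale but not on every scale. In 5xFAD libraries 64, 65 and 79, the median deviation of the genes from their own means over the 6 libraries was −0.0080, −0.019 and −0.0099 on the log2 scale, against 0.021, 0.0051 and 0.018 in WT libraries 62, 63 and 66. The highest value of a gene fell in a 5xFAD library for 11, 6 and 6 genes and in a WT library for 21, 18 and 16. The lowest fell in a 5xFAD library for 16, 19 and 21 genes and in a WT library for 5, 11 and 6. Thus each 5xFAD library was below each WT library in its median with size factors. The same held with scaling by trimmed means of log ratios (TMM), with medians of −0.0096, −0.019 and −0.012 in 5xFAD and 0.022, 0.0032 and 0.023 in WT. Scaled to total reads the medians were −0.0043, 0.016 and −0.027 in 5xFAD and −0.011, 0.029 and 0.0050 in WT, and with quantile normalization they were −0.0072, 0.0039 and −0.025 in 5xFAD and −0.00051, 0.016 and 0.023 in WT. On both of these scales 5xFAD library 65 lay above WT library 62, so the groups overlapped.

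**Figure D2:**
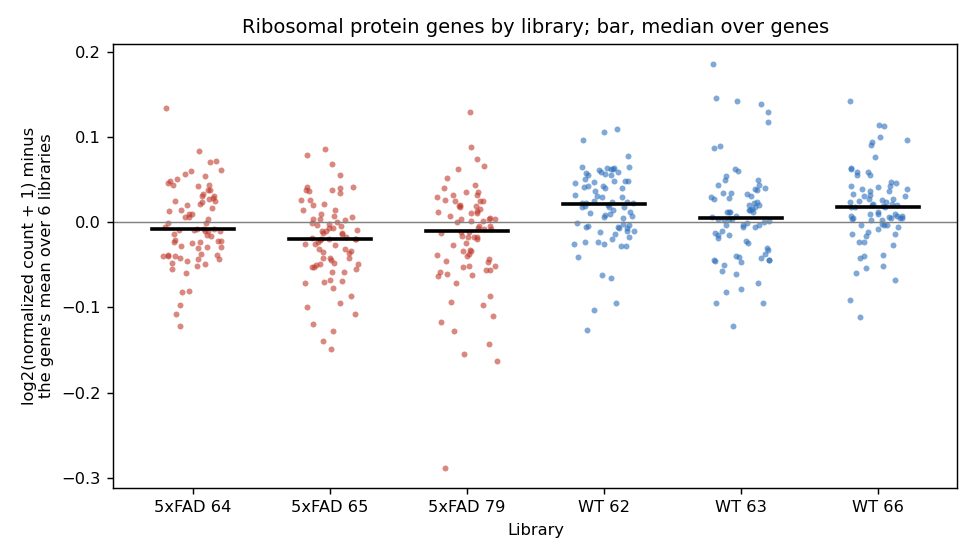
Deviation of log2(normalized count + 1) from the gene's mean over 6 libraries (vertical axis), 1 point per tested ribosomal protein gene, in 5xFAD libraries 64, 65 and 79 and WT libraries 62, 63 and 66 from left to right, with a bar at the median. With the authors' size factors the medians are below 0 in the 3 5xFAD libraries and above 0 in the 3 WT libraries. The same held with TMM scaling but not with scaling to total reads or quantile normalization, and the clouds of points overlap.

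The data bound the differences tightly. The 95% interval of the fold change lay within 1.2-fold in either direction for 74 of the 78 genes (94.9%), against 36.3% of all tested genes, and within 1.5-fold for all 78, against 71.4%. It lay within 1.1-fold for 26 genes (33.3%), against 2.7%. The gap was smaller at like levels: among genes with a mean of 500 to 8000 normalized counts, the interval lay within 1.2-fold for 98.7% of 75 ribosomal protein genes and 76.1% of 6255 genes in all, and within 1.5-fold for 97.7% of those 6255. The 4 genes whose interval passed 1.2-fold were Rpl38, Rps28, Rps27l and Rps4l. The median SD within a genotype was 0.045 on the log2 scale for ribosomal protein genes and 0.138 for all tested genes, and in the same range of means it was 0.044 for ribosomal protein genes and 0.081 for all. Between libraries of the same genotype, chi-square per degree of freedom over the reads of ribosomal protein genes was 1.68 to 3.18, against 4.00 to 13.2 over all tested genes, where counting noise alone gives about 1.

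**Figure D3:**
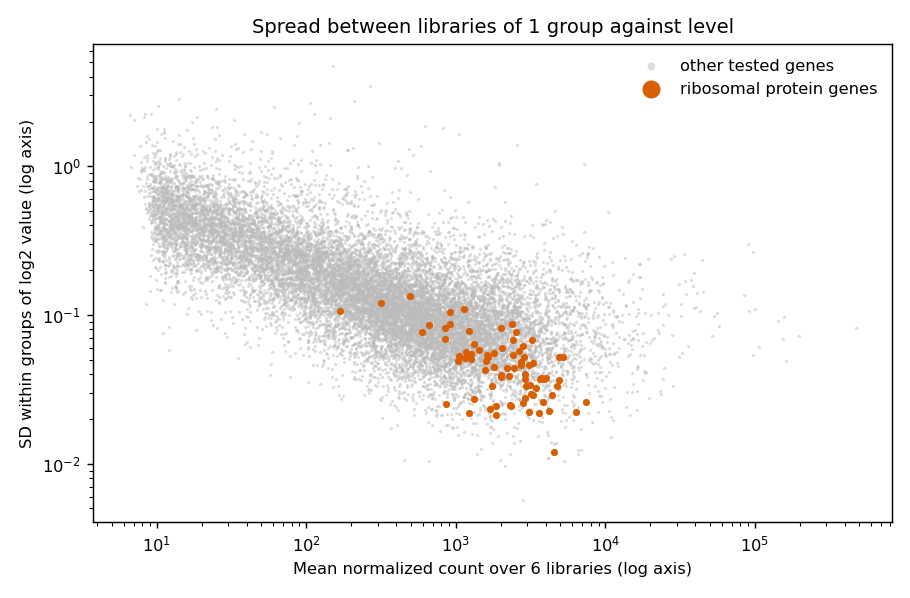
SD between libraries of the same genotype of log2(normalized count + 1) (vertical log axis) against the mean normalized count over 6 libraries (horizontal log axis), for all tested genes and for the ribosomal protein genes. The ribosomal protein genes lie in the lower part of the cloud, with a median SD of 0.045 against 0.138 for all genes.

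Among large-subunit proteins, Rpl38 had the lowest fold change. Rpl38 (ENSMUSG00000057322.13) encodes a small protein that, in mouse embryos, is needed for the translation of Hox transcripts and the patterning of the skeleton. It had 848, 781 and 758 normalized counts in 5xFAD and 874, 937 and 910 in WT, from 734, 751 and 758 reads in 5xFAD and 941, 1089 and 891 in WT. The highest 5xFAD value was below the lowest WT value, by a narrow margin. The means were 795.7 ± 46.9 in 5xFAD and 906.7 ± 31.6 in WT (SD, n = 3 each), and the log2 fold change was −0.19 ± 0.066 (SE; 95% interval −0.34 to −0.040). Its limma adjusted p was 1.00, and its unadjusted p, from the same limma fit across all genes, was 0.0180. Over the alternatives tried the log2 fold change ran from −0.24 to −0.16, and the unadjusted p was 0.0686 without 5xFAD library 79 and 0.0517 without WT library 63.

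Rpl17, Rpl30 and Rpl9, all structural proteins of the large subunit, had the next smallest p-values among the large-subunit genes with lower values in 5xFAD. Rpl17 had 3615, 3604 and 3563 normalized counts in 5xFAD and 3881, 3942 and 3677 in WT. Rpl30 had 1828, 1798 and 1783 in 5xFAD and 1962, 1905 and 1888 in WT. Rpl9 had 4238, 4199 and 4409 in 5xFAD and 4584, 4524 and 4478 in WT. For all 3 genes the groups did not overlap, with log2 fold changes of −0.092 ± 0.051, −0.089 ± 0.050 and −0.081 ± 0.049 (SE, n = 3 each), and each 95% interval included 0. The 5xFAD values of Rpl17 and Rpl30 were closer together than their WT values.

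Rpl3 and Rpl4, large proteins of the core of the subunit, gave the highest normalized counts of the family, a scale on which longer transcripts count more. Rpl3 had 7240, 7349 and 7350 in 5xFAD and 7681, 7359 and 7655 in WT. The lowest WT value stood barely above the highest 5xFAD value, and the log2 fold change was −0.049 ± 0.048 (SE, n = 3 each). Rpl4 had 6138, 6334 and 6227 in 5xFAD and 6666, 6468 and 6560 in WT, a log2 fold change of −0.075 ± 0.048. Rpl21, also among the highest in normalized counts, had 4897, 4977 and 4542 in 5xFAD and 5135, 4996 and 5034 in WT, and its groups were apart with library 79 the lowest.

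Rpl6 showed almost no difference between genotypes, while Rpl10 was among the genes whose groups were apart. Rpl6 had 4909, 4971 and 4808 normalized counts in 5xFAD and 4946, 4728 and 5023 in WT, overlapping groups with a log2 fold change of −0.00062 (95% interval −0.11 to 0.11). Rpl10, an X-linked gene whose protein joins the subunit late in its assembly, had 3011, 3055 and 2987 in 5xFAD and 3180, 3129 and 3064 in WT, which did not overlap. Its log2 fold change was −0.050 ± 0.049 (SE, n = 3 each).

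Rpl41 and Rpl13 lay at the other end. Rpl41 encodes a very short, basic peptide. It had 2007, 2087 and 2218 normalized counts in 5xFAD and 1943, 2020 and 1902 in WT, with means of 2104 ± 107 in 5xFAD and 1955 ± 59.8 in WT (SD, n = 3 each). One WT library exceeded the lowest 5xFAD library, so the groups overlapped, and the log2 fold change was 0.11 ± 0.058 (SE; 95% interval −0.024 to 0.23). Rpl13 had 2205, 2330 and 2189 in 5xFAD and 2161, 2090 and 2204 in WT, overlapping groups with a log2 fold change of 0.059 ± 0.053.

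**Figure D4:**
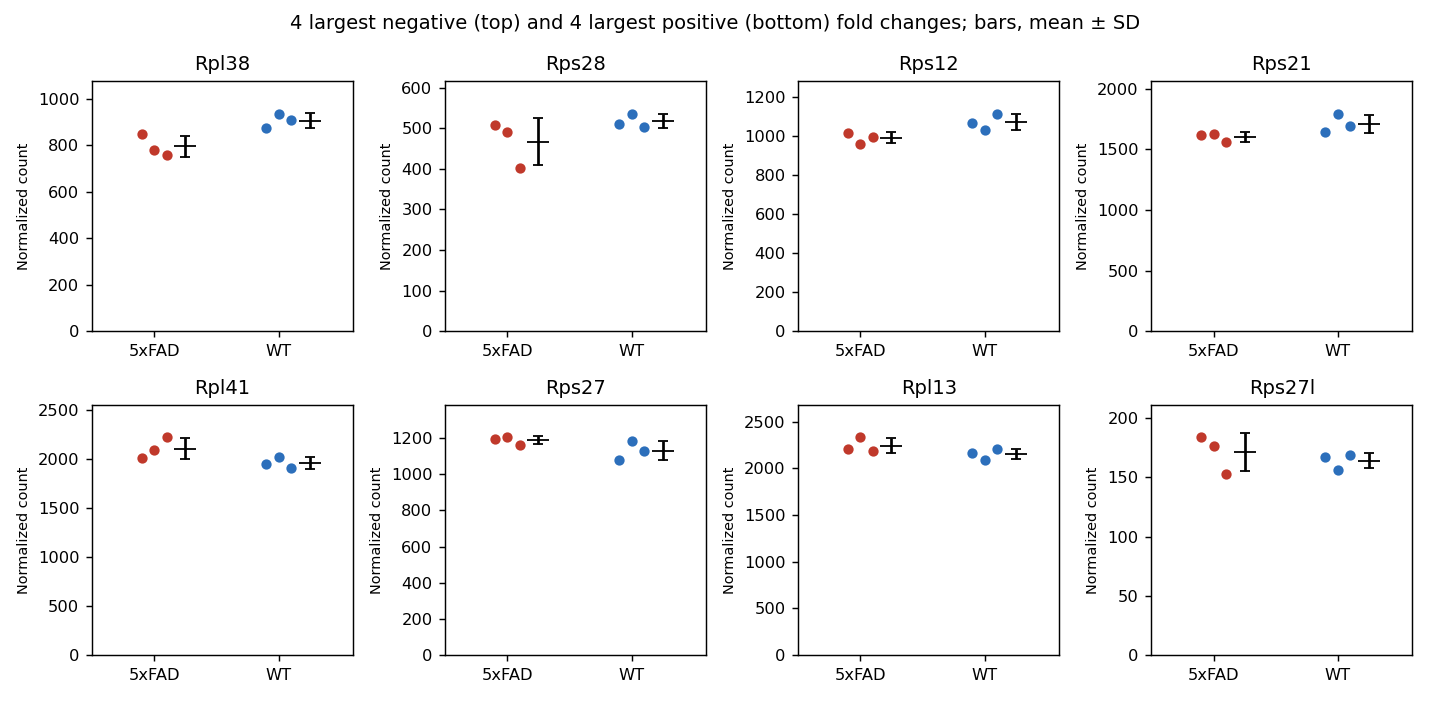
Normalized count (vertical axis, from 0) in each library of the 4 ribosomal protein genes with the most negative fold change (top) and the 4 with the most positive (bottom), 5xFAD left of WT, with bars for mean and SD. Rpl38, Rps12 and Rps21 have 5xFAD values below all WT values, while the groups overlap for each of the 4 genes of the bottom panels.

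When ribosome assembly is disturbed, Rpl5 and Rpl11 bind Mdm2 together with a small ribosomal RNA. Rpl5 had 2969, 2806 and 2900 normalized counts in 5xFAD and 2841, 2856 and 2986 in WT, a log2 fold change of −0.0015 (95% interval −0.12 to 0.11). Rpl11 had 2815, 2633 and 2679 in 5xFAD and 2905, 2738 and 3025 in WT, a log2 fold change of −0.092 ± 0.058 (SE, n = 3 each). The groups overlapped for both genes. Rpl13a, which in human myeloid cells also acts outside the ribosome to silence inflammatory transcripts, had 4151, 3883 and 4117 in 5xFAD and 4017, 4021 and 3984 in WT. Here both the highest and the lowest value belonged to 5xFAD, and the log2 fold change was 0.015 ± 0.051.

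The stalk of the large subunit, which recruits elongation factors, is built from Rplp0, Rplp1 and Rplp2. Rplp0 had 2454, 2314 and 2463 normalized counts in 5xFAD and 2511, 2250 and 2434 in WT. Rplp1 had 1940, 2016 and 2035 in 5xFAD and 2063, 1950 and 2034 in WT. Rplp2 had 685, 606 and 646 in 5xFAD and 715, 691 and 638 in WT. All 3 pairs of groups overlapped, with log2 fold changes of 0.0082 ± 0.060 for Rplp0, −0.013 ± 0.053 for Rplp1 and −0.077 ± 0.075 for Rplp2 (SE, n = 3 each).

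Among small-subunit proteins, Rps28 and Rps12 had the lowest fold changes. Rps28 had 507, 492 and 401 normalized counts in 5xFAD and 512, 536 and 503 in WT. Library 79 was far below the other 5 and the groups overlapped, with a log2 fold change of −0.15 ± 0.097 (SE, n = 3 each) that was −0.049 when library 79 was left out. Rps12 had 1018, 961 and 994 in 5xFAD and 1065, 1032 and 1115 in WT, groups that did not overlap. Its log2 fold change was −0.11 ± 0.059 (95% interval −0.24 to 0.021).

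Rps21 had 1618, 1626 and 1556 normalized counts in 5xFAD and 1641, 1793 and 1691 in WT, the second small-subunit gene whose groups did not overlap, with a log2 fold change of −0.094 ± 0.056 (SE, n = 3 each). Rps6, whose phosphorylation by S6 kinases is a common readout of mTOR activity, had 5134, 4844 and 5214 in 5xFAD and 5401, 5086 and 5376 in WT. Its groups overlapped, with a log2 fold change of −0.062 ± 0.054. Transcript levels say nothing of that phosphorylation.

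Rps27 and its paralog Rps27l, a zinc-finger protein and a copy induced by p53, were both on the higher side. Rps27 had 1196, 1204 and 1164 normalized counts in 5xFAD and 1078, 1184 and 1128 in WT. Rps27l had 184, 177 and 153 in 5xFAD and 167, 157 and 168 in WT. Both overlapped between genotypes, with log2 fold changes of 0.073 ± 0.059 for Rps27 and 0.057 ± 0.117 for Rps27l (SE, n = 3 each). Without 5xFAD library 64 that of Rps27l was 0.0042 and without library 79 it was 0.14, and that of Rps27 was 0.040 without WT library 62.

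Other small-subunit genes with a known further role stood close to no difference. Rpsa, which is also described as a laminin receptor precursor, had 4590, 4728 and 4811 normalized counts in 5xFAD and 4862, 4655 and 4718 in WT. Rps3, whose protein also has a part in DNA repair, had 3813, 3807 and 3847 in 5xFAD and 3880, 3736 and 3915 in WT. For both the groups overlapped, with log2 fold changes of −0.011 ± 0.050 for Rpsa and −0.0078 ± 0.049 for Rps3 (SE, n = 3 each).

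Rps25 is needed for some forms of unconventional initiation in yeast and human cells. It had 2298, 2219 and 2240 normalized counts in 5xFAD and 2308, 2314 and 2181 in WT. Rps19, the gene most often mutated in human Diamond-Blackfan anaemia, had 1219, 1145 and 1170 in 5xFAD and 1206, 1116 and 1114 in WT. The groups overlapped for both, with log2 fold changes of −0.0092 ± 0.052 for Rps25 and 0.041 ± 0.060 for Rps19 (SE, n = 3 each).

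Copies of ribosomal protein genes with restricted expression were low or listed at 0. Rpl10l, a testis copy of Rpl10, and Rpl32l were listed at 0 in all 6 libraries. Rpl39l, a testis copy of Rpl39, was listed at 0, 1.04 and 0 normalized counts in 5xFAD and 1.86, 0.860 and 0 in WT. Rpl3l, the striated muscle copy of Rpl3, had 2.31, 5.20 and 2.00 in 5xFAD and 5.57, 5.16 and 8.17 in WT, and Rpl6l had 1.16, 2.08 and 1.00 in 5xFAD and 0.929, 2.58 and 0 in WT. These 5 genes lay under the filter of 10 normalized counts in at least 3 libraries, overlapped between genotypes wherever they were detected, and were not tested.

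The partners of these copies were abundant. Rpl39 had 608, 605 and 534 normalized counts in 5xFAD and 607, 589 and 597 in WT, overlapping groups with a log2 fold change of −0.041 ± 0.074 (SE, n = 3 each). Rps4x, on the X chromosome, had 3327, 3191 and 3349 in 5xFAD and 3358, 3323 and 3286 in WT. Its autosomal copy Rps4l had 289, 323 and 312 in 5xFAD and 318, 358 and 291 in WT. Both overlapped, with log2 fold changes of −0.015 ± 0.049 for Rps4x and −0.062 ± 0.101 for Rps4l. Reads of such near-identical copies, and of pseudogenes, could have been split by the counting, so the values of copies are uncertain. Named pseudogenes of the family, 300 in the table, summed to 0.263%, 0.271% and 0.273% of the family's normalized counts in 5xFAD and 0.246%, 0.231% and 0.252% in WT, which did not overlap.

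Per kilobase of its principal GENCODE M21 transcript, the level of a tested gene had a median of 3043 normalized counts over the 77 genes with a length. The range was 231 for Rps20, whose annotated transcript is 3706 bases long, to 8156 for Rpl23a, both singled out after their values were seen. Rps20 had 229 in 5xFAD and 232 in WT per transcript kilobase, and 2377 in 5xFAD and 2413 in WT per coding kilobase, so its low place came with the long annotated transcript. Per coding kilobase the lowest was Rps27l, with 679 in 5xFAD and 651 in WT, and the highest was Rpl41, with 28057 in 5xFAD and 26064 in WT.

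Ratios between copies were compared per transcript kilobase for the 4 pairs with lengths, 3 of which were chosen after values were seen. Rps27l stood at 10.6%, 10.1% and 9.09% of Rps27 in 5xFAD and 10.7%, 9.14% and 10.3% in WT. Rpl22l1 stood at 66.0%, 69.1% and 67.3% of Rpl22 in 5xFAD and 68.1%, 84.0% and 66.2% in WT, where WT library 63 was apart from the other 5. Rpl36al averaged 61.6% ± 2.02 of Rpl36a in 5xFAD and 66.2% ± 5.46 in WT, and Rpl7l1 averaged 16.7% ± 0.999 of Rpl7 in 5xFAD and 16.2% ± 0.0511 in WT (SD, n = 3 each). The ratios of all 4 pairs overlapped between genotypes; a two-sided exact permutation test of 3 against 3 libraries cannot go below p = 0.1, and gave an adjusted p = 0.700 for each.

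Of 8 further ribosomal genes whose symbols fall outside the naming rule, 3 were above and 5 below 0, 0 were called by limma, and 1 had an unadjusted p under 0.05 against 2.32% of all genes. That gene was Rpl22l1, the copy of Rpl22, with 1016, 1016 and 1041 normalized counts in 5xFAD and 1099, 1249 and 1095 in WT, a log2 fold change of −0.16 ± 0.067 (SE, n = 3 each). Fau, which encodes a small-subunit protein fused to a ubiquitin-like domain, had 1007, 1016 and 999 in 5xFAD and 1096, 1036 and 1151 in WT. Neither gene's groups overlapped, and the log2 fold change of Fau was −0.12 ± 0.060. Rpl36al had 808, 781 and 838 in 5xFAD and 906, 814 and 951 in WT, overlapping groups.

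The rest of the translation machinery was set beside the family. Of 38 tested initiation factors and their regulators, 18 were above and 20 below 0 with 0 called by limma and a median log2 fold change of −0.0035. Eif4ebp1, an inhibitor of cap-dependent initiation that mTOR phosphorylates, had 12.5 to 16.2 normalized counts in 5xFAD and 4.08 to 12.1 in WT. The groups did not overlap at this low level. Each 5xFAD value of Eif4ebp1 reached the count set by the filter, and the lowest WT value did not. The WT libraries alone would not have brought the gene into the test, so its separation is not independent of the filter. Of 16 elongation and termination factors, 4 were above and 12 below 0, with a median of −0.025. Pelo, which rescues stalled ribosomes, had 139, 141 and 182 in 5xFAD and 196, 184 and 192 in WT, a log2 fold change of −0.32 ± 0.132 (SE, n = 3 each) that was not called. Of 22 other transcripts known to begin with the pyrimidine tract, 7 were above and 15 below 0, with a median of −0.015.

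Genes that build ribosomes and those that signal to them had medians above 0. Of 56 ribosome biogenesis genes, 30 (53.6%) were above and 26 below 0, with 0 called and a median of 0.0096, beside 50.2% of all genes above 0. In 7 of the 56 (12.5%) the groups did not overlap, 4 higher and 3 lower in 5xFAD, beside 7.42% of all genes. An unadjusted limma p under 0.05 was found for 1 of the 56 (1.79%), beside 2.32% of all genes. Ddx21, a nucleolar RNA helicase, had 485, 484 and 490 normalized counts in 5xFAD and 434, 455 and 414 in WT, groups that did not overlap, with a log2 fold change of 0.17 ± 0.072 (SE, n = 3 each). Of 30 growth signalling genes, 20 were above and 10 below 0 with 0 called and a median of 0.042, and of 21 tested genes of the ribosome stress and p53 response, 12 were above and 9 below 0 with 0 called and a median of 0.039. Mdm2, the ligase that Rpl5 and Rpl11 bind, had 799, 895 and 892 in 5xFAD and 809, 785 and 788 in WT, overlapping groups with a log2 fold change of 0.12 ± 0.066.

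A lower median was also present in transcripts that are not of the cytosolic ribosome. Of 78 mitochondrial ribosomal protein genes, 28 were above and 50 below 0, with a median log2 fold change of −0.026. Of 47 short abundant nuclear transcripts of the respiratory chain, 46 were below 0 with a median of −0.093, and 4 (8.51%) had an unadjusted p under 0.05, beside 1.05% of all genes in the lower direction, with 0 called by limma. In 8 of the 47 (17.02%) the 5xFAD values all lay below the WT values, beside 3.7% of all genes and 17.9% of the ribosomal protein genes. Ndufb4, a complex I subunit, had 645, 590 and 641 normalized counts in 5xFAD and 715, 692 and 747 in WT, a log2 fold change of −0.20 ± 0.068 (SE, n = 3 each) in groups that did not overlap. Of 13 mitochondrial-encoded transcripts, 12 were below 0 with a median of −0.087, 3 (23.1%) had an unadjusted p under 0.05, and 3 had all 5xFAD values below all WT values. Whether these transcripts share the source of their sign with the ribosomal protein genes was not tested.

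**Figure D5:**
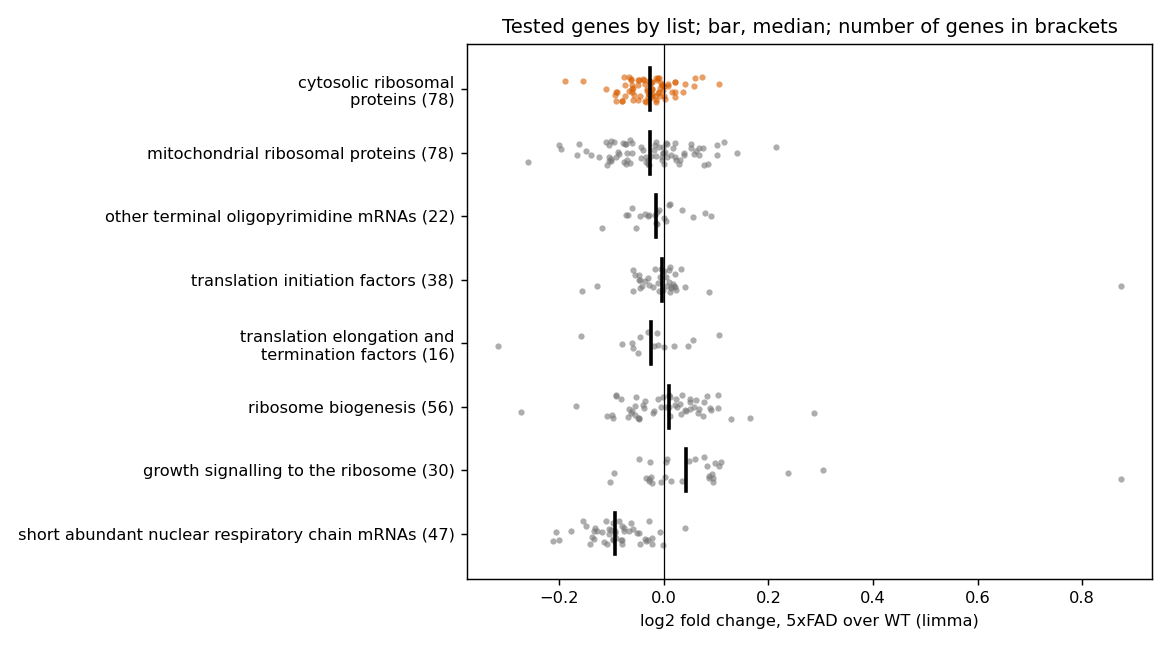
Log2 fold change (5xFAD over WT, horizontal axis) of each tested gene of the ribosomal protein family and of the related lists, 1 list per row with its number of genes in brackets and a bar at its median. The ribosomal protein genes lie between −0.19 and 0.11 around a median of −0.026, and the short respiratory chain transcripts lie furthest below 0 with a median of −0.093.

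Several sets of cell type markers lay to 1 side between genotypes. Cerebellar granule markers were above 0 in log2 fold change for 12 of 12 genes, with a median of 0.49, and noradrenergic markers for 10 of 12, with a median of 0.20, although the sums of both overlapped between groups. Summed oligodendrocyte markers ran from 213917 to 332861 normalized counts in 5xFAD and from 220489 to 280115 in WT, with 10 of 10 markers above 0 in log2 fold change. Purkinje marker sums ran from 14190 to 34254 in 5xFAD and from 11197 to 27402 in WT, with 7 of 8 above 0. Astrocyte sums ran from 79452 to 83900 in 5xFAD and from 77735 to 88168 in WT, and microglial sums from 4150 to 4364 in 5xFAD and from 3894 to 4461 in WT. Of 8 meningeal fibroblast markers, 8 were above 0 in log2 fold change and 4 had an unadjusted p under 0.05, beside 1.27% of all genes in the higher direction. All tested choroid plexus (5), ependymal (7) and erythroid (5) markers were below 0, but the sums of each list overlapped between groups. Choroid plexus sums ran from 378 to 429 in 5xFAD and from 387 to 1537 in WT, where library 66 was far above the other libraries. Ependymal sums ran from 721 to 1522 in 5xFAD and from 914 to 1411 in WT. Erythroid sums ran from 1944 to 3370 in 5xFAD and from 1961 to 3140 in WT. In a punch, fewer cells of a type rich in ribosomal transcripts and less RNA per cell cannot be told apart, and the part of cell makeup in the family's values was not tested.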

How the data were processed

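Per the labels' protocols, RNA was selected by its poly-A tail, prepared with TruSeq chemistry and read on a NovaSeq. STAR, RSEM, DESeq2 and mm39 are listed in the submitters' processing notes. The deposited values are a normalized count signal that the authors made by dividing gene counts by 1 size factor per library (0.865, 0.962 and 1.00 in 5xFAD; 1.08, 1.16 and 0.979 in WT), although the table is named as TPM. Every value was a whole multiple of 1 step per library (100%, tolerance 0.001), so whole reads were recovered for read totals, edgeR and DESeq2. The deposited table also gives the authors' log2 fold change, a test score and p-values per the file headers, and 0 per-sample columns were left unused. No strand setting of the counting was given in the sources used here, which leaves overlapping and antisense genes uncertain. A reference of gene names paired 52073 of the identifiers (91.5%) with a symbol.

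Genes with at least 10 normalized counts in at least 3 of 6 libraries (16411) were tested with limma 3.58.1 (R 4.3.3) on log2(normalized count + 1), with a variance trend and robust moderation, adjusted by Benjamini-Hochberg at 0.05. The code was tested on simulated data whose fold changes were larger than any in the family. That test therefore does not speak to differences of the family's size. edgeR 4.0.16 and DESeq2 1.42.0 were alternatives. DESeq2 gave an adjusted p to 28317 genes. Sequences were RefSeq promoters on GRCm38.p6, and lengths came from GENCODE M21. Figures used matplotlib 3.10.9. The members, lists and naming rule were chosen with earlier results of these data known. The rule named Rpsa and the stalk genes, the 8 smallest p-values, the 4 highest and 4 lowest fold changes, the 5 highest and 5 lowest means, paralog pairs, genes with a further role, genes under the filter, and up to 3 genes of smallest p per list, of which the text gives those it turns on. The 95% intervals of log2 fold changes had a median half-width of 0.120 for the family and 0.254 for all genes. Some items that the rule or the counts cover are not reported here.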

Additional observations from a re-analysis of the deposited data

How the results depend on the processing

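No paired analysis was possible because the 2 genotypes share no library number. Over 16 other settings, 0 ribosomal protein genes were called in any of them. The number of genes called over all tested genes was 0 without variance trend and robust moderation, 3 with DESeq2, and 0 to 2 when 1 library was left out. Scaling to total reads moved the family's median log2 fold change to −0.012 and the number of genes whose groups do not overlap to 6. Quantile normalization moved that number to 8. Leaving out 1 library gave 18 to 25 such genes, since 2 against 3 values separate more easily. The share of all tested genes whose groups do not overlap is not given for these settings. With 1 library left out, the median stayed between −0.030 and −0.020, the genes below 0 between 53 and 62, and the difference in the share of reads between −0.019 and −0.0034 percentage points. The other settings that gave these counts left them within 1.5 times of those reported. Of 30 named genes, 19 kept their sign throughout and 11 did not. Scaling to total reads gave 0.013 for Rpl5, 0.014 for Rpl6, 0.0012 for Rplp1, 0.0053 for Rps25, 0.0067 for Rps3 and 0.0038 for Rpsa, and quantile normalization gave 0.0080 for Rpl6 and 0.011 for Rps3. Leave-one-out ranges were −0.0032 to 0.045 for Rpl13a, −0.073 to 0.021 for Rpl39, −0.021 to 0.021 for Rpl5, −0.026 to 0.018 for Rpl6, −0.037 to 0.042 for Rplp0, −0.037 to 0.0073 for Rplp1, −0.037 to 0.0056 for Rps25, −0.028 to 0.0057 for Rps3, −0.13 to 0.016 for Rps4l, −0.028 to 0.0068 for Rps4x and −0.026 to 0.0077 for Rpsa. Without a change of sign, leaving out 1 library moved the value by over 1.5 times for Rpl11 (−0.13 to −0.059), Rpl13 (0.030 to 0.076), Rpl21 (−0.100 to −0.034), Rpl41 (0.067 to 0.14), Rplp2 (−0.12 to −0.033), Rps6 (−0.090 to −0.031), Rps19 (0.016 to 0.079), Rps21 (−0.12 to −0.058), Rps27 (0.040 to 0.11), Rps27l (0.0042 to 0.14) and Rps28 (−0.22 to −0.049). The causes were not tested. The share of reads does not depend on scaling or test, and the overlap count does not depend on the test or the pseudocount, so those settings gave no separate value.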
